A study of Mus musculus with 20 samples.

Results

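The replication-dependent histone cluster genes were taken as the protein-coding rows of the deposited mouse spleen count table whose gene name begins with Hist1h, Hist2h, Hist3h or Hist4h. This rule found 67 of the 54532 gene rows. By class they were 6 linker histone H1 genes, 18 H2A, 18 H2B, 12 H3 and 13 H4 genes. By cluster, 54 lay in Hist1 on chromosome 13, 10 in Hist2 on chromosome 3, 2 in Hist3 on chromosome 11 and 1 in Hist4 on chromosome 6 (GRCm38). The rows Hist1h2al, Hist1h2aj and Hist3h2bb-ps carry such names with another biotype and were not members.

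These genes supply the bulk of the histones that package newly copied DNA, so their transcription and mRNA stability are tied to S phase. Most of their mRNAs have no poly(A) tail and end just after a conserved stem-loop, which is bound by the stem-loop binding protein SLBP, and many of the genes lack introns. Some of them also give longer, polyadenylated transcripts, described mainly in differentiating or non-dividing cells, and replacement histone genes such as H3f3b are transcribed through the whole cell cycle. In the spleen of young mice the red pulp holds dividing erythroid precursors, and the white pulp holds lymphocytes.

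Whole spleens of mice aged 4 weeks were profiled by bulk RNA sequencing in 20 libraries. The gluten-free libraries, from mice bred on that diet, numbered 4 with a plain number as ID (7 to 10) and 5 with an S before the number (S1, S3, S5, S6 and S8). The control libraries numbered 8 with plain IDs (1 to 8) and 3 with S IDs (S1, S2 and S6). The meaning of the S, the strain, the sex, the composition of the diets and whether each ID is a separate mouse are not given in the sources used here, so p-values measure the spread between these libraries, which may be technical. Whether the RNA was selected for poly(A) is not given either, nor is the strand setting or the treatment of reads that fit several genes.

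Library totals ran between 13626021 and 24268237 counts, and each library had a count in 49 to 57 of the 67 histone genes. Markers of B cells, T cells, erythroblasts, neutrophil precursors and red pulp macrophages were all detected, with 0 listed genes at 0 counts over the libraries. The summed level of 8 pancreatic acinar genes reached 9000 CPM (a library's counts scaled to a fixed total) in gluten-free S1 and 788 CPM in control 4, and 24.7 CPM at most in the other libraries. Levels below are CPM scaled by TMM factors over the 20 libraries, and in bulk tissue fewer cells of a type cannot be told apart from less RNA per cell.

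Stem-loop sites were searched in the GENCODE M21 transcripts (GRCm38), as a run of 16 bases within 100 bases after the stop codon that starts GG, ends CC and has 6 outer bases that pair exactly across a loop of 4 bases. In histone genes only the transcript with the longest sequence after the stop codon was searched, and in other genes every protein-coding transcript. A site held only by another transcript of a histone gene would therefore be missed. Stem-loop sites were found in 45 of the 67 histone genes, against 82 of 20929 other genes with enough annotated sequence (0.392%). Of the remaining histone genes, most end in the annotation at or soon after the stop codon: 52 of the 67 had the 16 or more bases needed for a site. The sites below are those of members the results turn on, shown because the classes differ in the stem and because the loop differs between members. Capitals mark the 16-base stem-loop, with the flanking bases in lower case.
Hist1h1c: aaaaGGCTCTTTTCAGAGCCaccactccca
Hist2h2ac: aaaaGGCTCTTTTTAGAGCCaccaaatctt
Hist3h2ba: caaaGGCTCTTTTCAGAGCCaccttccaag
Hist1h3g: taaaGGCTCTTCTTAGAGCCacccatcttc
Hist1h3e: aaacGGCTCTTTTAAGAGCCacctccatta
Hist1h4c: aaaaGGCCCTTTTCAGGGCCacccacaaat
Hist1h4i: taaaGGCCCTTTTTAGGGCCaccacaaaat
Hist2h4: taacGGCCCTTTTTAGGGCCaaccacagtc

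The stem GGCTCT was found in 33 members of the H1, H2A, H2B and H3 classes and in 0 H4 genes. The 12 H4 sites had the stem GGCCCT in 10 genes and GGTCCT in 2. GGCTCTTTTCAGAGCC was the commonest site, in 25 genes (3 H1, 10 H2A, 7 H2B and 5 H3), followed by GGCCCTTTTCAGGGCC in 7 H4 genes. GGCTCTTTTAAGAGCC was present in 6 genes. The loop of Hist1h3g differed from that of every other H3 site found. The commonest site was shared by Hist3h2ba, which fell with the diet in libraries with plain IDs, and Hist1h1c, which had no call there.

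Promoters were read from RefSeq (GRCm38.p6), from 250 bases before to 50 bases after the start, for 62 of the 67 genes (63 promoters). For 61 of the 63, that start lay within 150 bases of the start of the gene row, the exceptions being Hist1h1d and Hist1h2be. Motifs were counted on both strands. The CCAAT box was present in 85.7% of the histone promoters, against 37.3% of 32788 other promoters, and by class in all 6 H1, 18 H2A, 17 H2B and 10 H3 promoters and in 3 of 12 H4 promoters. TATAAA was present in 55.6% of the histone promoters, against 13.5% of the others. AAACACA, the element known from H1 promoters, was present in 5 of 6 H1 promoters and in 14.3% of all histone promoters, against 7.17% of the others. A letter match describes the window and shows no binding. The promoters of 2 linker histones are shown because both hold CCAAT and AAACACA while their diet differences, given further on, were unlike. Capitals mark CCAAT, on either strand, and TATAAA and AAACACA.
Hist1h1b, chr13:21780576-21780875, minus strand: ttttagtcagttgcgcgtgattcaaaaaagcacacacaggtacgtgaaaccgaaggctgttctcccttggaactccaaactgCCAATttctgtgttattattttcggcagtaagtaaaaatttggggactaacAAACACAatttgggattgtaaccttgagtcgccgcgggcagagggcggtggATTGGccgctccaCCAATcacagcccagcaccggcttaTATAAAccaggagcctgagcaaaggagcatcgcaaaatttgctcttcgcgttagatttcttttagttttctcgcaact
Hist1h1c, chr13:23738557-23738856, plus strand: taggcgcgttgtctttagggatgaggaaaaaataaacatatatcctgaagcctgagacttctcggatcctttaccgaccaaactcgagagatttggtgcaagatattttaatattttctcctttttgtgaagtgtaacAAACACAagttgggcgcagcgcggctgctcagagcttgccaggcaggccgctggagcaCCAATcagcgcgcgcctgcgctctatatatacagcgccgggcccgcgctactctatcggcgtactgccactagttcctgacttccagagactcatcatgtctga

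AAACACA began at position -117 from the start in Hist1h1b and at -112 in Hist1h1c. TATAAA began at -28 in Hist1h1b and was not matched in the Hist1h1c window. CCAAT was held by 12 of the 14 promoters of members that fell with the diet in the libraries with plain IDs, and by 17 of the 21 promoters of members tested there without a call, of which Hist1h2be has 2. TATAAA was held by 9 of those 14 promoters and by 10 of those 21.

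A single gene held most of the histone signal. Hist1h1c, which encodes linker histone H1.2, averaged 227 CPM over the 20 libraries (132 to 343 CPM) and made up 62.8% of the summed level of the 67 genes. The next in CPM were Hist2h2be (26 CPM), Hist1h4i (18.4 CPM), Hist1h2bc (15 CPM) and Hist3h2ba (13.0 CPM), and the 10 highest genes together held 90.3%. By class, H1 made up 66.4% of the summed level, H2B 19.1%, H4 8.89%, H2A 4.04% and H3 1.62%. Per kilobase of the annotated gene, the level was 146 CPM per kb for Hist1h1c, 25.3 for Hist1h4i, 21.2 for Hist3h2ba, 13.0 for Hist1h2bc and 9.92 for Hist2h2be. On the same per-length scale the replacement variants H3f3b, for H3.3, and H2afz, for H2A.Z, had 297 and 280 CPM per kb. H2afx had 175 CPM per kb, and all of these were above Hist1h1c. The other replacement variants ran from 140 CPM per kb for H3f3a down to 0.886 CPM per kb for H1fx.

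Most of the histone signal came from genes annotated with an extended transcript. In the 23 members with a stem-loop and at least 100 further annotated bases, the summed level was 82.5% of the total, and in the 5 with at least 100 bases after the stop codon and no stem-loop found it was 11.9%. The 22 members whose transcript ends sooner after the stem-loop held 2.78%, and the 17 with a short end and no stem-loop held 2.81%. All of the 10 highest members belonged to the extended kinds. For Hist1h1c the annotation runs 840 bases past the stem-loop, for Hist1h4i 330, for Hist3h2ba 169 and for Hist1h2ac 2010. AATAAA, the usual poly(A) signal, was present within 50 bases of an annotated end in 14 of the 67 genes. The threshold of 100 bases was chosen after the levels were known, and longer genes collect more counts, so these shares are a description.

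**Figure D1:**
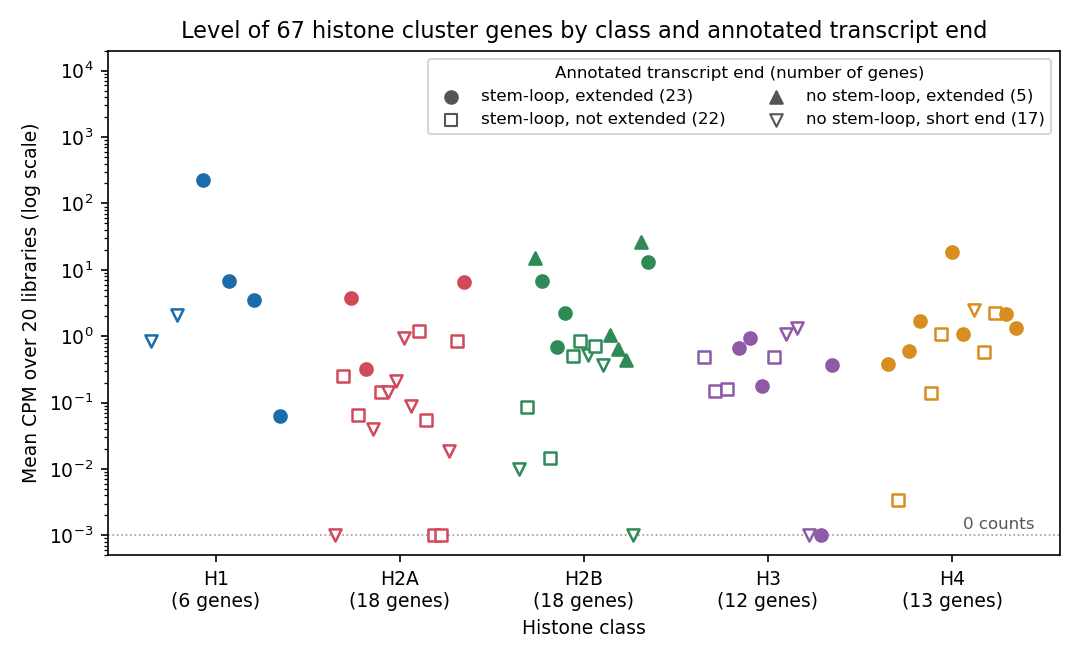
Mean level of each of the 67 histone cluster genes over the 20 libraries, in CPM on a log axis, by histone class; filled symbols are genes with at least 100 annotated bases beyond the stem-loop (circles) or, where no stem-loop was found, beyond the stop codon (triangles), and open symbols are genes with shorter ends. Hist1h1c stands at 227 CPM, 6 genes have 0 counts and are drawn on the dotted line, and the 10 highest genes are all filled.

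A filter on low counts left 17600 genes to test, among them 39 of the 67 members: 5 of 6 H1, 5 of 18 H2A, 13 of 18 H2B, 6 of 12 H3 and 10 of 13 H4 genes. The other members were 6 with 0 counts in every library (Hist1h2aa, Hist2h2aa1, Hist2h2aa2, Hist2h2bb, Hist2h3b and Hist2h3c1) and 22 with 1 to 138 counts in all. For a member with 0 of 360908429 counts, 3 counts allow a level of up to 0.00831 CPM, for counting error only. Many of the genes share sequence with other gene rows, measured as the share of 100-base windows in a gene's transcripts also present in another gene. The median share was 100% for the members at 0, 54.5% for the 22 and 24.7% for the 39. Matches on either strand were counted, also to rows at the same locus, so the share does not measure copies alone. Another gene row lies over the full length of Hist2h2bb, Hist2h3b, Hist2h3c1, Hist2h2aa1 and Hist2h2aa2, and Hist1h2aa, also at 0, shared 10.3%. A count of 0 therefore does not show that a gene with shared windows was silent, since the handling of reads that fit several genes is not known. Another gene row overlapped 7 of the 39, among them Hist1h2be and Hist1h1e, which share 496 bases, and Hist3h2a, which lies within Trim17 (2146 bases), so counts may be split or lost between them. The testis histone genes Hist1h1t, Hist1h2aa and Hist1h2ba had 22, 0 and 4 counts in all libraries together.

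In the libraries with plain IDs, 17 of the 39 members fell in gluten-free spleens and 1 rose (edgeR's quasi-likelihood test, adjusted p under 0.05, adjusted over all 17600 genes). These were 43.6% lower and 2.56% higher of the members tested, against 22.9% lower and 18.5% higher of all genes tested. The median log2 fold change was -0.71 over the members and 0.03 over all genes, and 35 of the 39 members had a value below 0. Without scaling factors the split was 10 lower and 4 higher, against 11.6% lower and 37.1% higher of all genes, with the median of the members at -0.44 and that of all genes at 0.30. By class that split was 2 lower and 0 higher for H1, 1 and 1 for H2A, 3 and 1 for H2B, 0 and 0 for H3 and 4 and 2 for H4. Gluten-free 7 was the lowest of all 20 libraries for 12 of the 39 members. The 10 most abundant members held 2 of the 17 that fell, with a median of -0.21, and the other 29 held 15, with a median of -0.93. Leaving out 1 library gave 12 calls without gluten-free 7 (30.8%, against 34.4% of all genes) to 20 without control 5 (51.3%, against 41.7%). It gave 15 without control 4 (38.5%, against 38.8% of all genes). The groups did not overlap for 6 members, each lower in the gluten-free libraries (15.4%, against 13.5% of all genes lower and 7.84% higher), namely Hist1h1a, Hist1h1b, Hist2h2ac, Hist2h2be, Hist3h2ba and Hist4h4.

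**Figure D2:**
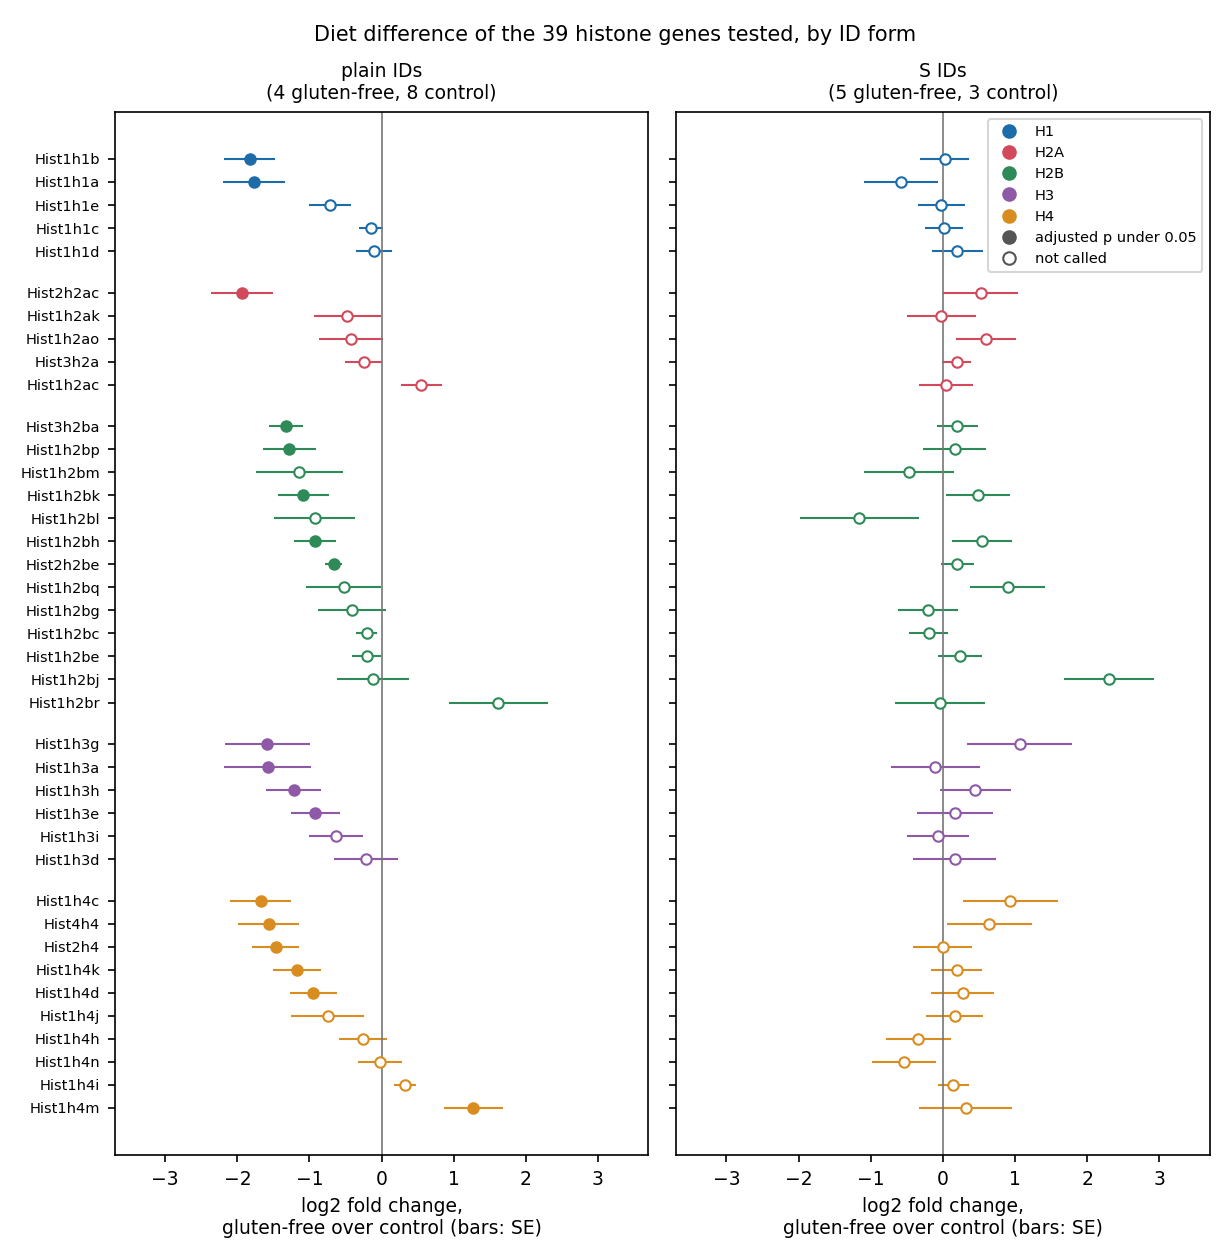
Log2 fold change (points) with its standard error (bars), gluten-free over control, for the 39 histone genes tested, within plain IDs on the left and within S IDs on the right; colours are histone classes and filled points passed an adjusted p under 0.05. On the left 17 filled points lie below 0 and that of Hist1h4m above it, and on the right no point is filled.

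The linker histone genes split by abundance. Hist1h1b, which encodes H1.5, had 0.547, 1.13, 0.844 and 1.19 CPM in the gluten-free libraries 7 to 10, against 1.76 CPM (lowest), 3.06 (median) and 5.77 (highest) in the 8 control libraries. All 4 gluten-free values lay below all control values, and the fold change was -1.83 on the log2 scale (SE 0.35, adjusted p = 0.000683). Hist1h1a, for H1.1, also fell (log2 fold change -1.76, SE 0.43, adjusted p = 0.00379). Hist1h1c had 132, 214, 212 and 188 CPM in gluten-free spleens, against 139, 193 and 264 CPM (lowest, median, highest) in control spleens. The groups overlapped over most of their range, at a log2 difference of -0.15 (SE 0.17, adjusted p = 0.505). Hist1h1d, for H1.3, had a log2 difference of -0.10 (SE 0.25, adjusted p = 0.763). For Hist1h1e, for H1.4, it was -0.71 (SE 0.29, adjusted p = 0.0594), and a call was gained without control 5 (adjusted p = 0.00608), without control 8 (adjusted p = 0.0492) and with DESeq2 (adjusted p = 0.034).

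Of the 5 H2A genes tested, 1 fell. Hist2h2ac had 0.253, 0.567, 0.153 and 0.539 CPM in the gluten-free libraries, against 0.637, 1.22 and 2.44 CPM (lowest, median, highest) in the controls, a log2 difference of -1.94 (SE 0.43, adjusted p = 0.00194). The 2 groups did not overlap, although the levels were low and 3 counts in a library are worth 0.124 to 0.22 CPM. Hist3h2a had a log2 difference of -0.25 (SE 0.25, adjusted p = 0.441), and for Hist1h2ao it was -0.42 (SE 0.45, adjusted p = 0.462). Hist1h2ac, annotated far past its stem-loop, stood the other way at 2.27, 4.32, 4.18 and 3.45 CPM in gluten-free spleens and 1.38, 2.35 and 4.38 CPM (lowest, median, highest) in control spleens. Those groups overlapped, and the log2 difference of 0.55 (SE 0.28, adjusted p = 0.129) passed without control 7 (adjusted p = 0.0347) and without scaling factors (0.83, adjusted p = 0.0182).

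Among the 13 H2B genes, 5 fell and 0 rose. Hist3h2ba had 2.86, 6.71, 6.48 and 6.85 CPM in gluten-free spleens, against 9.45, 13.5 and 19.0 CPM (lowest, median, highest) in control spleens. The groups were apart, at a log2 difference of -1.33 (SE 0.23, adjusted p = 0.000335), and without gluten-free 7, the lowest library, it was -1.11 (adjusted p = 0.000824). Hist2h2be, the most abundant H2B gene, had 14.1, 16.1, 15.2 and 19.5 CPM in the gluten-free libraries, against 20.3, 26.4 and 29.6 CPM in the controls (log2 fold change -0.66, SE 0.12, adjusted p = 0.000382). Again no values overlapped, with the highest gluten-free library just below the lowest control. Hist1h2bc, the second in level, had 9.14, 12.9, 13.1 and 11.4 CPM in gluten-free and 9.57, 13.5 and 16.4 CPM in control spleens, and its log2 difference of -0.21 (SE 0.15) did not pass (adjusted p = 0.274). The other members that fell were Hist1h2bp, Hist1h2bk and Hist1h2bh, at -1.28, -1.08 and -0.92 on the log2 scale. Hist1h2br had the highest fold change of the class, 1.62 on the log2 scale (SE 0.68, adjusted p = 0.0682), from 0.505, 1.22, 0.69 and 0.216 CPM in gluten-free and 0, 0.148 and 0.847 CPM (lowest, median, highest) in control spleens. It shares 91.5% of its windows with other genes, and a call was gained without control 5 (adjusted p = 0.00783), without gluten-free 10 (adjusted p = 0.0488), without scaling factors (adjusted p = 0.03) and with limma-voom (adjusted p = 0.0217).

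All 6 H3 genes tested had log2 fold changes below 0, and 4 passed. Hist1h3g had 0.337, 0.262, 0.0767 and 0.216 CPM in gluten-free spleens, against 0.13, 0.565 and 1.77 CPM (lowest, median, highest) in control spleens, with overlap at the low end. Its log2 fold change was -1.58 (SE 0.59, adjusted p = 0.0392). For Hist1h3h it was -1.22 (SE 0.38, adjusted p = 0.0181) and for Hist1h3e -0.92 (SE 0.34, adjusted p = 0.0388). Hist1h3a passed narrowly, at -1.58 (SE 0.60, adjusted p = 0.045). Hist1h3i, the most abundant H3 gene, had -0.63 (SE 0.37, adjusted p = 0.183), and Hist1h3d had -0.22 (SE 0.45, adjusted p = 0.719). Without scaling factors 0 of 6 passed. Hist1h3g lost its call without any 1 of control 1, 4 and 6 and gluten-free 8, 9 and 10 (adjusted p 0.0506 to 0.122). Hist1h3e lost it without any 1 of control 1, 2, 4 and 7 and gluten-free 7, 9 and 10 (adjusted p 0.0589 to 0.135), and Hist1h3h without gluten-free 7 (0.054) or 8 (0.0538). Over 17 alternative fits (other scaling, other tools, a fit of all 4 groups and each library left out), Hist1h3g kept its call in 9. Hist1h3e kept it in 8 of those 17 and Hist1h3h in 14. The H3 genes shared a median of 49.8% of their windows with other genes.

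The H4 genes, nearly all of which encode the same protein, went both ways: 5 of 10 fell and 1 rose. Hist2h4 had 1.47, 1.57, 1.11 and 1.29 CPM in gluten-free spleens, against 1.5, 3.7 and 6.11 CPM (lowest, median, highest) in control spleens, a log2 difference of -1.47 (SE 0.33, adjusted p = 0.00209). The groups met only at the lowest control. Hist1h4c had 0.126, 0.262, 0.384 and 0.485 CPM in gluten-free and 0.299, 0.997 and 1.52 CPM in control spleens (log2 fold change -1.68, SE 0.42, adjusted p = 0.00509). Hist1h4k fell by 1.17 on the log2 scale (SE 0.34, adjusted p = 0.0107), and Hist4h4 and Hist1h4d also fell. Hist1h4m rose, with 0.8, 0.61, 0.345 and 0.97 CPM in gluten-free spleens, against 0.136, 0.234 and 0.524 CPM in control spleens (log2 fold change 1.27, SE 0.41, adjusted p = 0.0205). It shares 88.1% of its windows with other genes, and the call was lost without gluten-free 7 (adjusted p = 0.0626) or 10 (adjusted p = 0.0775). Hist1h4i, the most abundant H4 gene, had 18.7, 21.1, 19.8 and 17.8 CPM in gluten-free and 9.45, 14.6 and 20.4 CPM in control spleens, so the gluten-free values lay in and just above the upper part of the control range. Its log2 difference of 0.32 (SE 0.16, adjusted p = 0.107) passed without control 7 (adjusted p = 0.0444), with limma-voom (adjusted p = 0.0485) and without scaling factors (0.61, adjusted p = 0.00181). Hist1h4n, the third in level, had -0.02 (SE 0.31, adjusted p = 0.961).

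**Figure D3:**
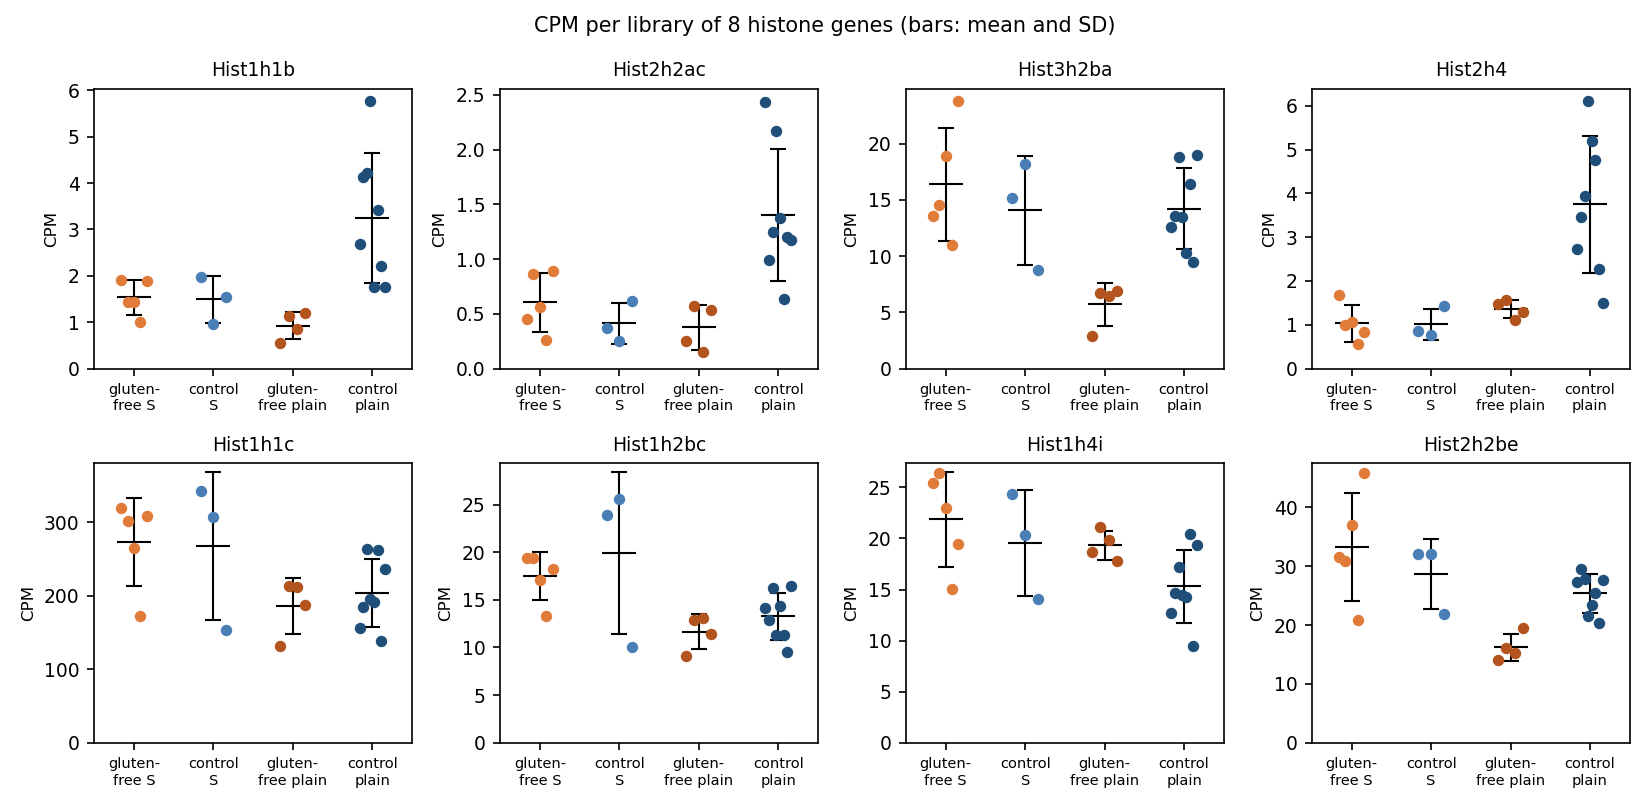
CPM of 8 histone genes in each library (points) with the group mean and SD (bars), groups from left to right gluten-free S, control S, gluten-free plain and control plain. For Hist1h1b, Hist2h2ac, Hist3h2ba and Hist2h2be the gluten-free plain points lie below every control plain point, for Hist2h4 every control plain point lies above every control S point, and for Hist1h1c, Hist1h2bc and Hist1h4i the plain groups overlap.

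Summed by class, the H2B genes gave 44.8 ± 6.73 CPM in the gluten-free plain libraries and 68.4 ± 9.32 CPM in the control plain libraries (SD, n = 4 and 8), and the H3 genes gave 4.24 ± 0.973 CPM in gluten-free and 7.52 ± 2.04 CPM in control libraries. For H1 the sums were 196 ± 40.0 CPM in gluten-free and 220 ± 48.6 CPM in control spleens, for H2A 11.8 ± 2.75 CPM in gluten-free and 13.9 ± 3.33 CPM in control, and for H4 29.6 ± 2.13 CPM in gluten-free and 33.5 ± 6.97 CPM in control spleens. Hist1h1c and Hist1h4i make up most of the H1 and H4 sums. Without Hist1h1c the 66 other genes summed to 101 ± 14.3 CPM in gluten-free and 139 ± 22.0 CPM in control spleens. Sums are given with no test.

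**Figure D4:**
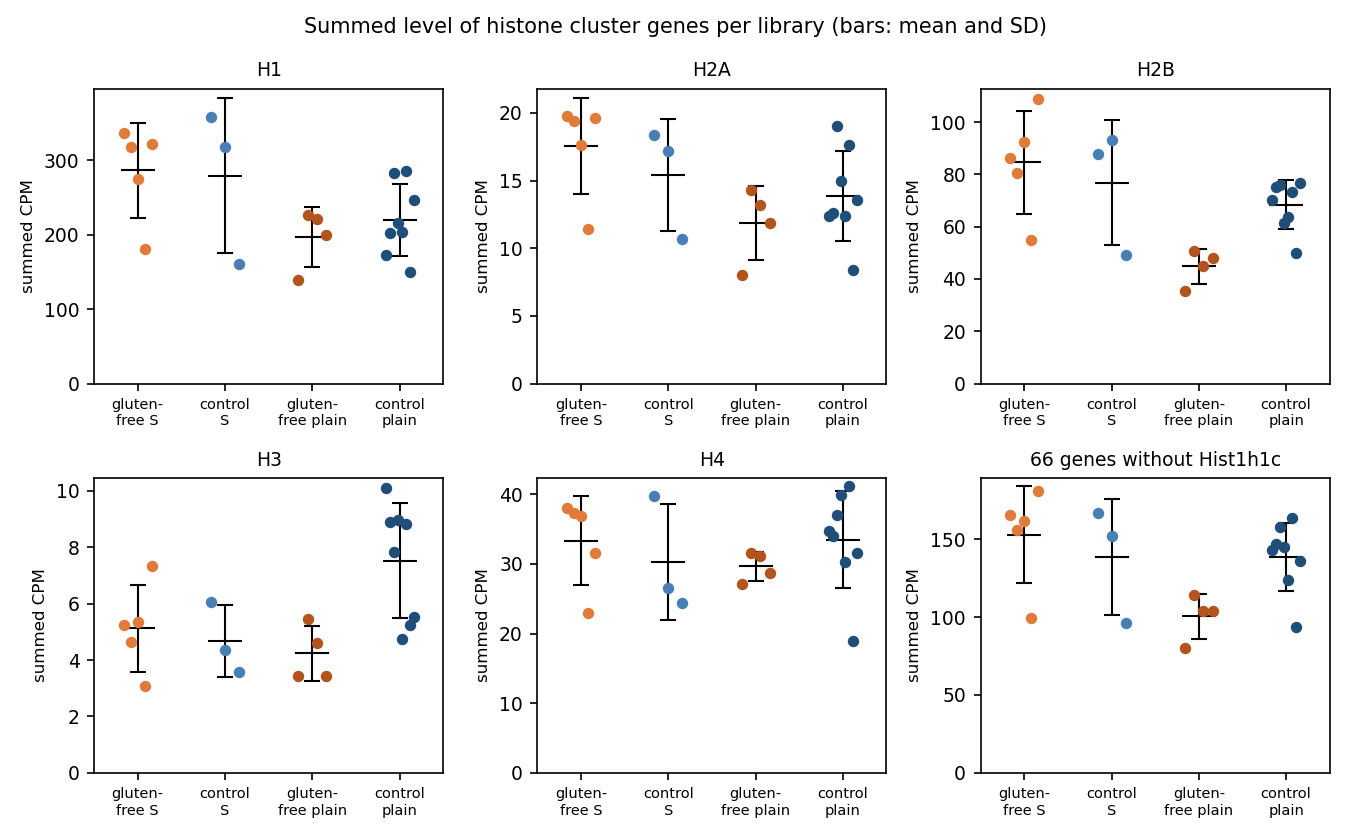
Summed CPM of the histone genes of each class, and of the 66 genes other than Hist1h1c, in each library (points), with the group mean and SD (bars); groups from left to right are gluten-free S, control S, gluten-free plain and control plain. The H2B sum of the gluten-free plain libraries (35.3 to 50.7 CPM) reaches the control plain range (50 to 76.6 CPM) at its lower edge, and the H1 sums overlap.

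Within the S IDs no histone gene passed. Of the 39 members tested 0 were called (edgeR and DESeq2, and edgeR without gluten-free S1), and 1 had an unadjusted p under 0.05, while of all genes 0% were called higher and 0% lower and 904 had an unadjusted p under 0.05. The median log2 fold change of the members was 0.17, with 26 of the 39 above 0, and that of all genes was 0.01. By class the medians were 0.02 for H1, 0.19 for H2A, 0.20 for H2B, 0.17 for H3 and 0.18 for H4. Hist1h1c had 320, 302, 265, 173 and 308 CPM in the gluten-free libraries S1, S3, S5, S6 and S8, against 343, 307 and 153 CPM in the control libraries S1, S2 and S6. Hist1h1b had 1.92, 1.43, 1.43, 1.01 and 1.89 CPM in gluten-free and 1.98, 0.95 and 1.54 CPM in control libraries. In both genes the lowest and highest values of the 2 groups lay close together. The groups were apart for 1 member, Hist1h2bj, an H2B gene at 0.389 to 0.96 CPM in gluten-free and 0.0618 to 0.185 CPM in control libraries (2.56% of members, against 1.73% of all genes higher and 1.95% lower). Its log2 fold change was 2.30 with an adjusted p = 0.916, and the control values are near those of 1 to 3 counts.

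Over all 20 libraries with the ID form as a term, 0 of 39 members were called by edgeR and 3 by DESeq2, with 8 at an unadjusted p under 0.05 (20.5%, against 25.5% of all genes). Of all genes 0% were called higher and 0% lower by edgeR, and the share of all genes called by DESeq2 is not given here. The median log2 fold change was -0.38 for the members. Without control S6, 5 members were called (12.8%, against 21.6% of all genes), and without gluten-free S8, 4 were (10.3%, against 17.0% of all genes). The count was 0 without gluten-free S1 and 0 without control 4.

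The difference between the 2 diet effects was tested by the product of diet and ID form, S minus plain. It passed for 10 of the 39 members, each with a positive value, and for 15.3% of all genes with a positive and 10.3% with a negative value. These 10 were Hist1h1b, Hist2h2ac, Hist2h2be, Hist3h2ba, Hist1h2bh, Hist1h2bk, Hist1h3g, Hist2h4, Hist1h4c and Hist4h4, and the median over the members was 0.91. Hist3h2ba had the smallest adjusted p (0.00916) at a log2 value of 1.52, and Hist1h1b had 1.84 (adjusted p = 0.0137). For Hist1h1c the value was 0.16 (adjusted p = 0.747) and for Hist1h4i -0.18 (adjusted p = 0.654). The count was 5 without scaling factors, 6 without any 1 of control 2, gluten-free 7, gluten-free 8 and control S6, and 5 without gluten-free S8. It was 9 without gluten-free S1 and 7 without control 4.

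Set within 1 diet, S IDs over plain IDs, 7 of the 39 members were higher in gluten-free S libraries and 0 lower, against 17.2% of all genes higher and 16.2% lower. Hist3h2ba had 13.6, 14.5, 18.9, 11 and 23.8 CPM in gluten-free S libraries, against 2.86, 6.71, 6.48 and 6.85 CPM in gluten-free plain libraries (log2 fold change 1.47, adjusted p = 0.00388). The 2 groups did not overlap, nor did they for Hist2h2be, at 20.9 to 45.9 CPM in S and 14.1 to 19.5 CPM in plain libraries (0.99, adjusted p = 0.00437). The other 5 called higher were Hist1h2bh, Hist1h2bc, Hist1h2be, Hist3h2a and Hist4h4. Groups did not overlap for 6 of the 39 members, each higher in S libraries (15.4%, against 18.7% of all genes higher and 10.4% lower). Without scaling factors 5 members were higher and 3 lower, against 9.39% of all genes higher and 32.2% lower, with the median of all genes at -0.36. The count was 11 without gluten-free S6 (28.2%, against 42.6% of all genes) and 6 without gluten-free S1 (15.4%, against 32.9%).

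In the controls, 0 of 39 members were higher in S libraries and 2 lower, against 1.81% of all genes higher and 0.648% lower. The median log2 fold change was -0.76 over the members, with 27 of the 39 below 0, and 0.0006 over all genes. It was -0.13 over the replication genes and -0.02 over the mitosis genes listed further on. An unadjusted p under 0.05 was found for 35.9% of the members and 16.1% of all genes. Hist2h4 had 0.866, 0.76 and 1.42 CPM in the control S libraries, against 1.5, 3.7 and 6.11 CPM (lowest, median, highest) in the control plain libraries (log2 fold change -1.87, adjusted p = 0.0302). Hist1h4c had 0.124, 0.19 and 0.37 CPM in S and 0.299, 0.997 and 1.52 CPM in plain libraries (-2.08, adjusted p = 0.049). The first of these pairs did not overlap, and the second did at its edge. Groups were apart for 3 members, Hist1h3e, Hist2h2ac and Hist2h4, each lower in S libraries (7.69%, against 2.55% of all genes higher and 1.78% lower). The count of members called was 5 without control S6 (12.8%, against 5.51% of all genes). It was 1 without control 1 or control 4 (2.56%, against 1.66% and 1.92%). It was 0 without any 1 of control 2, 3, 6, 7, S1 and S2, against at most 1.7% of all genes. Hist1h1c stood the other way, at 343, 307 and 153 CPM in S and 139, 193 and 264 CPM (lowest, median, highest) in plain libraries (0.39, adjusted p = 0.419).

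Genes that make, process or receive histone mRNA and protein were read from the same tests. For these and the lists that follow, the share of all genes within the plain IDs was 22.9% lower and 18.5% higher. Without scaling factors it was 11.6% lower and 37.1% higher. Of 14 genes for histone mRNA transcription and 3-prime processing, 10 fell within the plain IDs and 0 rose (median -0.48 on the log2 scale), and without scaling factors 6 fell and 1 rose. Slbp, the stem-loop binding protein, fell by 1.17 (adjusted p = 1.82e-05), and Npat, the coactivator of histone gene transcription, fell by 0.62 (adjusted p = 0.0004). Eri1, an exonuclease that trims the histone mRNA end, fell by 0.75, while the endonuclease gene Cpsf3 had 0.08 (adjusted p = 0.527). Of 20 histone chaperones 17 fell, among them Chaf1b, a subunit of the chromatin assembly factor, by 1.17 and Nasp by 1.02, and Daxx had 0.11 (adjusted p = 0.327). Without scaling factors 14 of the chaperones fell and 1 rose.

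Of 11 replacement variants 7 fell and 1 rose within the plain IDs, with a median log2 fold change of -0.34, and without scaling factors 4 fell and 2 rose. Cenpa, the centromeric H3, fell by 1.01 and H2afz by 0.92, and H3f3b fell by 0.34 (adjusted p = 0.0222). H2afy, for macroH2A, rose by 0.53. All 22 genes of DNA replication fell (median -1.09), as did all 16 of mitosis (median -1.14), with and without scaling factors. Within the S IDs 0 genes of any of these lists were called by edgeR. The product of diet and ID form was positive and passed for all 22 replication genes, all 16 mitosis genes and 16 of 20 chaperones. It was also positive and passed for 10 of 14 mRNA factors and 5 of 11 replacement variants, and negative and passed for 1 replacement variant. Of all genes 15.3% passed with a positive and 10.3% with a negative value.

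Markers of some other cells moved beside the histone genes. All 16 erythroblast genes, none at 0, fell within the plain IDs (median -1.35), and their summed level was 6010 to 10000 CPM in gluten-free and 12500 to 24400 CPM in control plain libraries. It was 12900 to 32800 CPM in gluten-free S and 14200 to 28300 CPM in control S libraries. All 7 neutrophil precursor genes rose, with sums of 1550 to 3940 CPM in gluten-free and 330 to 1080 CPM in control plain libraries, and all 7 T cell genes rose, with sums of 474 to 577 CPM in gluten-free and 258 to 459 CPM in control plain libraries. Of 7 B cell genes 1 rose (median 0.47), with sums of 2070 to 3020 CPM in gluten-free and 1340 to 2770 CPM in control plain libraries. Without scaling factors all 7 B cell genes rose (median 0.72), as did 37.1% of all genes. The erythroblast, neutrophil precursor and T cell genes all kept their calls without scaling factors. Of 6 red pulp macrophage genes 0 were called (median 0.03), with sums of 647 to 894 CPM in gluten-free and 505 to 973 CPM in control plain libraries. Without scaling factors 1 of the 6 rose (median 0.31). The part of these cells in the histone differences was not tested.

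**Figure D5:**
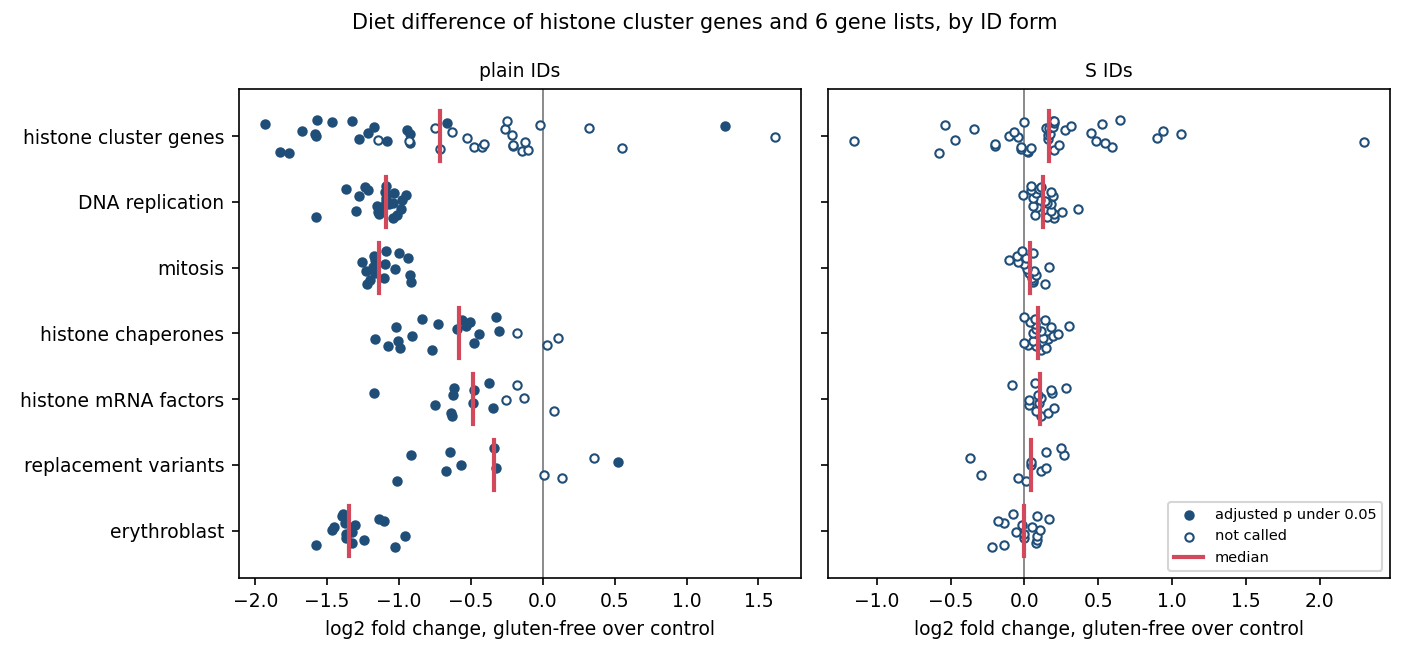
Log2 fold change, gluten-free over control, of the 39 histone cluster genes tested and of 6 gene lists (1 point a gene, filled where the adjusted p was under 0.05), within plain IDs on the left and S IDs on the right, with the list's median as a red line. Within the plain IDs the histone genes spread from -1.94 to 1.62 around a median of -0.71, while the replication genes lie between -1.58 and -0.95; within the S IDs no point is filled.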

How the data were processed

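RNA was extracted from whole spleen with an RNeasy lipid kit and DNase and sequenced on an Illumina NovaSeq 6000, per the labels' protocols. The authors deposited raw counts per gene, and the submitters' processing notes name CASAVA, HISAT2 2.0.5, featureCounts 1.5.0 and GRCm38 (mm10), while the annotation release and the filters are not given in the sources used here. All 67 gene rows had the same coordinates in GENCODE M21. Counts were tested with edgeR 4.0.16 in R 4.3.3 (TMM scaling within the libraries of each fit, filterByExpr, glmQLFit and glmQLFTest), adjusted by Benjamini-Hochberg over all 17600 genes tested, with calls at an adjusted p under 0.05. SE is the fold change divided by the square root of the F value. Alternatives used DESeq2 1.42.0, limma 3.58.1, other scaling and filters, and each library left out. Fits were tested on simulated data. Named genes were, per class, the 3 most abundant, the lowest and highest fold change within the plain IDs and those with a sign unlike the class median, with Hist1h1b in any case. Hist1h1a, Hist1h2bj, Hist2h4, Hist4h4 and the other members named beyond these were chosen after their values were seen. The members and lists were chosen with earlier results of these data known.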

Additional observations from a re-analysis of the deposited data

Results flagged for a closer look

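The highest or lowest library stood far from the rest of its group (Dixon's gap test at 95%) for 4 of 66 group values examined, where chance gives about 1 in 20. Hist3h2ba was at 2.86 CPM in gluten-free 7, with the nearest library of its group at 6.48 CPM. Hist1h4n was at 1.05 CPM in gluten-free S6, with the nearest at 1.95 CPM. Hist1h2br was at 0.847 CPM in control 5, with the nearest at 0.34 CPM, and Hist1h3g was at 1.77 CPM in control 4, with the nearest at 0.897 CPM.

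The diet difference itself differed between the ID forms for 10 of the 39 members, each with a positive value. The value is the product of diet and ID form, S minus plain, on the log2 scale (edgeR with adjustment over all genes). Of all genes, 15.3% passed with a positive and 10.3% with a negative value. An unadjusted p under 0.05 was found for 38.5% of the members and 38.6% of all genes. Linker histone Hist1h1b had 1.845 (adjusted p = 0.0137) and the H2A gene Hist2h2ac had 2.452 (adjusted p = 0.0134). Of the H2B genes, Hist3h2ba had 1.525 (adjusted p = 0.00916), Hist2h2be 0.859 (0.0174), Hist1h2bh 1.46 (0.0358) and Hist1h2bk 1.567 (0.0398). The H3 gene Hist1h3g had 2.648 (adjusted p = 0.0486). Of the H4 genes, Hist1h4c had 2.607 (adjusted p = 0.0167), Hist4h4 2.206 (0.0318) and Hist2h4 1.457 (0.0495). Several of these rest on levels near or below 1 CPM.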

How the results depend on the processing

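No fold change of a named member reversed its call. The count of members called within the plain IDs, 18, was 10 with a mean of at least 1 CPM required, which leaves fewer members to test, and 12 to 20 with 1 library left out. Within the S IDs it was 0 under every alternative run. Over all libraries it was 0, 3 with DESeq2 and 0 to 5 with 1 library left out. For the product of diet and ID form it was 10, 5 without scaling factors, 6 with limma-voom and 5 to 14 with 1 library left out. For S over plain IDs it was 7 in gluten-free spleens, 6 to 11 with 1 library left out, and 2 in controls, 5 at an adjusted p under 0.1 or with DESeq2, 1 without scaling factors, without a filter or at a mean of at least 1 CPM, 0 with limma-voom and 0 to 5 with 1 library left out. With 1 library left out, the share of all genes called ran from 33.8% to 49.3% within the plain IDs. It was 0% within the S IDs, 0% to 21.6% over all libraries and 19.2% to 30.9% for the product. For S over plain IDs it was 23.8% to 42.6% in gluten-free spleens and 0% to 5.51% in controls. The shares of all genes under DESeq2, limma-voom and the other filters are not given here, so those counts of members stand without a comparison. The causes were not tested. A fit with the replicate number as a block used only the IDs found in both diets, 7 and 8 with plain IDs and S1 and S6 with S IDs. It called 0 members within the plain IDs, 0 within the S IDs and 0 for the product. With so few libraries hardly any call could be made, so these counts of 0 say little. Same-numbered libraries deviated from their group means with correlations of -0.189 (ID 7), -0.219 (8), 0.142 (S1) and 0.407 (S6). These values do not settle whether the shared numbers are pairs, and the main fits treated the libraries as unpaired. Depth limits low members, since 3 counts in a library are worth 0.124 to 0.22 CPM.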
